A study of Mus musculus with 8 samples.

Results

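The 34 genes described here are named for myelin, the insulating sheath that oligodendrocytes wrap around axons, and for the mature cells that make it. They were taken by gene symbol from the deposited count table as a list of myelin and mature oligodendrocyte genes, and all 34 were found among its 56980 gene IDs. RNA was measured in cultured oligodendrocyte progenitors, the dividing precursors of these cells, so the list asks how far genes of the finished cell were already read out in the progenitor and whether glucose moved them. Of the 34 members, 31 had counts high enough to be tested.

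The progenitors came from the cortex of wild-type C57BL/6 mouse pups of either sex, at postnatal day 6 to 8. They were isolated on dishes coated with an antibody to PDGFRα, after lectin dishes had taken away microglia and endothelial cells. High glucose cultures (HG) were held at 25 mM glucose, and low glucose cultures (LG) were lowered in steps over the first 3 days to 2.5 mM and harvested with HG on day 5. Both groups were first expanded with PDGF-AA and bFGF, and both kept PDGF-AA, a growth factor that holds progenitors in the cell cycle, during the glucose change. Neither medium is described as one that drives differentiation, which limits both groups as a model of the mature cell. Each group holds 4 libraries, numbered 1 to 4. Numbers 1 and 2 carry a common preparation code in both groups, and numbers 3 and 4 have a code each, so the 8 libraries come from 3 preparations. The labels call the libraries independent preparations, which the common code goes against, and n = 4 therefore counts libraries.

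A progenitor that leaves the cell cycle passes through a premyelinating stage before it becomes a mature oligodendrocyte. Genes such as Cnp, an enzyme of the uncompacted parts of myelin, are known to come on early along this path. Mbp, which compacts the membrane layers, and Mag, an adhesion protein of the layer that faces the axon, follow, and Mog, Mobp, Mal, Opalin and Klk6 belong to the late cell. The transcription factors Sox10 and Myrf are known to act on many of these genes.

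Total counts per library ran from 50864130 to 65733928. These totals are above the number of paired reads per library that the labels state, and whether both mates of a pair were counted is not given. If they were, the intervals of count ratios below are too narrow and the upper limit for a gene with 0 counts is too low. The progenitor marker Pdgfra, the receptor by which the cells were caught, stood at 1827 ± 360.4 CPM (counts scaled to library size with TMM factors) in HG and 1713 ± 303 in LG (mean ± SD, n = 4 libraries). The microglial markers Cx3cr1 and Itgam and the endothelial markers Cdh5 and Cldn5 had no count in any library. Of 12 Schwann cell markers, which share several myelin genes with oligodendrocytes, Foxd3 had no count. The summed CPM of that list, 397 to 450.4 in HG and 383 to 424 in LG, came mostly from Sox2 and Pmp22, which other cells also express. Markers of astrocytes were present, and they followed the preparation. The summed CPM of 12 astrocyte genes was 1974 to 2143 in the 4 libraries numbered 1 and 2 and 705 to 872 in the 4 numbered 3 and 4.

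The 34 members separated by depth into 3 classes. A mean of at least 10 CPM over the 8 libraries was reached by 12 members, which are called well counted, a mean of 1 to 10 CPM by 11, and less than 1 CPM by the other 11, which are called barely counted. The nearest members on each side of the upper limit were Tspan2 at 30.2 and Cryab at 9.72 CPM, and those at the lower limit were Mobp at 1.11 and Apod at 0.816 CPM. Among all tested genes 53.5% reached 10 CPM. The barely counted members were Apod, Ermn, Mal, Mog, Evi2a, Ndrg1, Ppp1r14a, Aspa, Hapln2, Opalin and Klk6. Of the late genes named above, Mobp was intermediate and Mog, Mal, Opalin and Klk6 were barely counted. Cnp, Enpp2, Plekhb1, Gsn, Nfasc, Jam3, Mbp, Cldn11, Tppp, Qdpr, Gjc3 and Tspan2 were well counted.

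Levels of different genes were set against each other per kilobase of annotated exon. Cnp was the highest member at 131 CPM per kb, against 177 for Pdgfra. It was followed by Plekhb1 at 62.0, Enpp2 at 60.9 and Gsn at 51.1 CPM per kb. These were followed by the junction genes Jam3 at 29.7 and Cldn11 at 27.9 CPM per kb. Mbp, the seventh by CPM alone, came to 7.44 CPM per kb, beside Gjc3 at 7.93. At the low end Mog stood at 0.200, Mal at 0.123, Opalin at 0.0405 and Aspa at 0.0297 CPM per kb. Gene-level counts do not part the classic Mbp transcripts from the longer transcripts of the same gene, nor the glial form of Nfasc from the neuronal form.

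**Figure D1:**
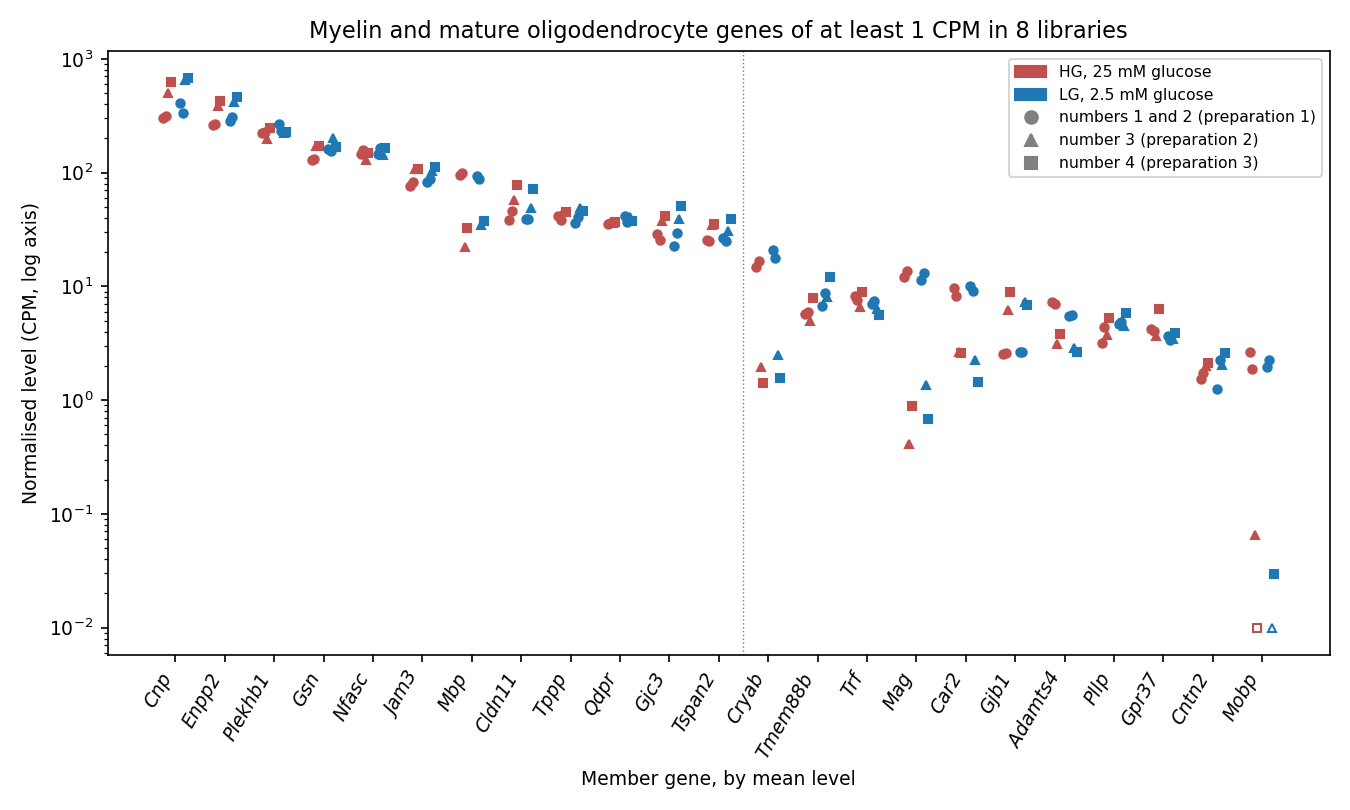
Level of the 23 members with a mean of at least 1 CPM in the 8 libraries, in TMM-scaled CPM on a log axis, with HG and LG in separate colours, the preparations as symbols and a dotted line between well-counted and intermediate members; open symbols at the bottom stand for 0 counts. Members run from Cnp, at 303 to 676 CPM, down to Mobp, and the symbols of Mbp, Cryab, Mag, Car2 and Mobp fall into 2 clusters by library number in both glucose groups.

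The promoter sequences of 4 members are given because these members mark the main patterns of the values that follow. Cnp is the highest member, Mag and Mobp differ most between preparations among the members with at least 1 CPM, and Tmem88b is the member with the largest difference between LG and HG for its error. Each sequence holds the 250 bases before the transcription start in RefSeq on GRCm38.p6, read 5′ to 3′ on the strand of the gene. Capitals mark matches on either strand to CTGGNAC, a core bound by Myrf, and to ACAAAG, a core bound by Sox factors.

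Cnp: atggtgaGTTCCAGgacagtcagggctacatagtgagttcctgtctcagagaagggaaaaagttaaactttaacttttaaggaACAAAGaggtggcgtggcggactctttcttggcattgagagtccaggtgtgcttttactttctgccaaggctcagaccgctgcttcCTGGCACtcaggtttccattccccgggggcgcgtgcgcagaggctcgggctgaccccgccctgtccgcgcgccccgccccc

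Mag: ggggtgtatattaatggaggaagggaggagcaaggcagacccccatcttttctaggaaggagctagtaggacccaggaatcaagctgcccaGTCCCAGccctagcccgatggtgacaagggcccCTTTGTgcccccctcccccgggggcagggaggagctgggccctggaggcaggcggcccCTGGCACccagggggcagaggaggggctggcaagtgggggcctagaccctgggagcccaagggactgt

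Mobp: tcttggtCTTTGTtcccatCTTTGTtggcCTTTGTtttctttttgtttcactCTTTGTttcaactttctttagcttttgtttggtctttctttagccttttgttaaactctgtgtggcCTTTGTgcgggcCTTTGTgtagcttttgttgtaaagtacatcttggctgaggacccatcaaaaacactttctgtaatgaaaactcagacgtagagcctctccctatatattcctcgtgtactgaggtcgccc

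Tmem88b: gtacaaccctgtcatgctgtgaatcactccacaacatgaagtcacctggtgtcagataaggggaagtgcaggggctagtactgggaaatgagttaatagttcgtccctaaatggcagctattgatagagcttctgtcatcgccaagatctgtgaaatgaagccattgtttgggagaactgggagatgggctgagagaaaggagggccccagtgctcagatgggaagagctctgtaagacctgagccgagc

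The Cnp window lies on the plus strand at chr11:100574689-100574938 and holds 2 matches to CTGGNAC and 1 to ACAAAG. The Mag window lies on the minus strand at chr7:30914864-30915113 and also holds 2 and 1. The Mobp window, on the plus strand at chr9:120149492-120149741, holds 6 matches to ACAAAG and 0 to CTGGNAC. The Tmem88b window, on the minus strand at chr4:155785875-155786124, holds 0 of both, which says only that these letters are not in this window. A RefSeq window was used for 25 of the 34 members. CTGGNAC was in 6 of the 25 (24.0%), against 16.1% of 32851 mouse windows of the same length, and ACAAAG was in 7 of the 25 (28.0%), against 16.5%. The motifs were searched on both strands, and a match is a description of the sequence only. The genes themselves span chr11:100574904-100591729 for Cnp (ENSMUSG00000006782), chr7:30899176-30914873 for Mag (ENSMUSG00000036634), chr9:120149707-120181484 for Mobp (ENSMUSG00000032517) and chr4:155781591-155785874 for Tmem88b (ENSMUSG00000073680) in GENCODE M21.

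Few members were called between LG and HG, and the precision differed widely between members: the SE of the log2 fold change without a block ran from 0.0695 for Qdpr to 1.66 for Mobp. In the edgeR fit with no block (quasi-likelihood F test), 0 of the 31 tested members passed a Benjamini-Hochberg adjusted p of 0.05, as did 0% of the 18905 genes tested. At an unadjusted p under 0.05 there was 1 member, Tmem88b, while 3.94% of all genes reached it. DESeq2 called 0 members in the same design and 2, Cnp and Tmem88b, with the library number as a block. The median log2 fold change of LG over HG was 0.014 for the 31 members and 0.0051 for all genes, and 18 of 31 members had a value above 0, against 51.4% of all genes. With the library number as a block, which compares each LG library with the HG library of its number, the median of the members was 0.053 and 20 of 31 were above 0, against 50.4% of all genes. In that fit 0 members passed, where 0.418% of all genes did (0.111% higher and 0.307% lower in LG), and 8 of 31 had an unadjusted p under 0.05, against 13.4% of all genes.

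Of the 12 well-counted members, 11 had a log2 fold change above 0, from 0.0070 for Tspan2 to 0.26 for Cnp, with a median of 0.085. Among all 10118 tested genes of at least 10 CPM, 57.7% were above 0, with a median of 0.023. The exception was Cldn11, the tight junction protein of myelin, at -0.14. None of the 12 passed in an edgeR fit, and the count above 0 fell to 7 of 12 without the LG library numbered 4. The summed CPM of all 34 members was 1478, 1531, 1761 and 2036 in HG 1 to 4 and 1688, 1621, 2036 and 2139 in LG 1 to 4. LG was the higher in each of the 4 numbers, while the groups overlapped, at 1702 ± 254.5 in HG and 1871 ± 255 in LG (SD, n = 4). Cnp made up the largest part of these sums.

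Among the sheath genes, Cnp was at 303, 312, 499 and 619.8 CPM in HG 1 to 4 and at 406, 336, 657 and 676 CPM in LG 1 to 4. The libraries numbered 3 and 4 were the high ones in both groups, and the groups overlapped. Within each number LG was the higher, by 0.42, 0.10, 0.40 and 0.12 on the log2 scale. The log2 fold change was 0.26 with an SE of 0.0729 in the blocked edgeR fit, with an adjusted p of 0.160. DESeq2 with the same block gave 0.27 with an adjusted p of 0.0153, so the call depended on the tool, and 3.77% of the 12002 genes with an adjusted p passed there.

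Mbp was at 95.6, 100.1, 22.1 and 32.8 CPM in HG and at 92.6, 88.3, 35.0 and 37.2 CPM in LG. The libraries numbered 1 and 2 were high and those numbered 3 and 4 low, in both groups. The log2 fold change of LG over HG was 0.014 (SE 0.590) without a block. LG was lower in numbers 1 and 2 and higher in numbers 3 and 4, and with libraries or pairs left out in turn or preparation 1 left out the estimate ran between -0.27 and 0.40.

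Tspan2, a tetraspanin of myelin, was at 25.4, 25.2, 34.6 and 35.2 CPM in HG and at 26.6, 24.9, 30.8 and 38.8 CPM in LG. Its groups overlapped and its log2 fold change of 0.0070 had an SE of 0.166. Like Cnp, it was higher in every library numbered 3 or 4 than in any numbered 1 or 2.

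Of the junction and adhesion genes, Cldn11 was at 38.2, 45.9, 57.2 and 77.4 CPM in HG and at 39.5, 38.8, 48.8 and 72.0 CPM in LG. Jam3, a junctional adhesion molecule, was at 76.4, 83.1, 107 and 108 CPM in HG and at 83.0, 87.1, 104 and 112 CPM in LG. Gjc3, a connexin of oligodendrocytes, was at 28.7, 25.8, 37.6 and 41.8 CPM in HG and at 22.6, 29.4, 39.2 and 51.2 CPM in LG. All 3 followed the library number and overlapped between LG and HG. Nfasc, which holds the paranodal loops of the sheath to the axon, was at 147, 159, 128 and 149 CPM in HG and at 147, 164, 144 and 163 CPM in LG. It did not follow the library number, and its values for number 1 were the same to 3 digits. Some 36.2% of the exon bases of Jam3 are shared with an antisense gene, whose reads cannot be told apart where strand is not used.

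The cytoskeletal genes included 3 well-counted members. Gsn, the actin-severing protein gelsolin, was at 129, 132, 171 and 172 CPM in HG and at 162, 156, 201 and 167 CPM in LG. It was higher in LG for numbers 1 to 3 and slightly lower for number 4. Its log2 fold change of 0.18 became 0.086 in the blocked fit with offsets for GC content and transcript length. Plekhb1, a membrane-bound protein, was at 223, 226, 199 and 246 CPM in HG and at 266, 233, 222 and 228 CPM in LG. Tppp, which promotes the assembly of tubulin, ran from 38.4 to 45.4 CPM in HG and from 36.1 to 48.5 CPM in LG. Both overlapped between groups, with log2 fold changes of 0.087 (SE 0.0868) and 0.0072 (SE 0.105).

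Enpp2, the secreted enzyme autotaxin, was at 259.6, 269.8, 386 and 422 CPM in HG and at 286, 307, 421 and 464 CPM in LG. LG was higher within each number by 0.13 to 0.19 on the log2 scale, an almost constant step on top of a larger difference between numbers. In the blocked edgeR fit this was 0.15 (SE 0.0563) with an adjusted p of 0.291. Qdpr, which regenerates the cofactor tetrahydrobiopterin, was at 35.3, 36.4, 35.8 and 36.5 CPM in HG and at 41.4, 36.8, 40.5 and 37.5 CPM in LG. It was the only tested member whose LG libraries all lay above its HG libraries, as 1.07% of all genes did, and none had all LG libraries below, as 1.82% of all genes did. Its log2 fold change was 0.12 with an SE of 0.0650 in the blocked fit, and its adjusted p by edgeR was 0.472.

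**Figure D2:**
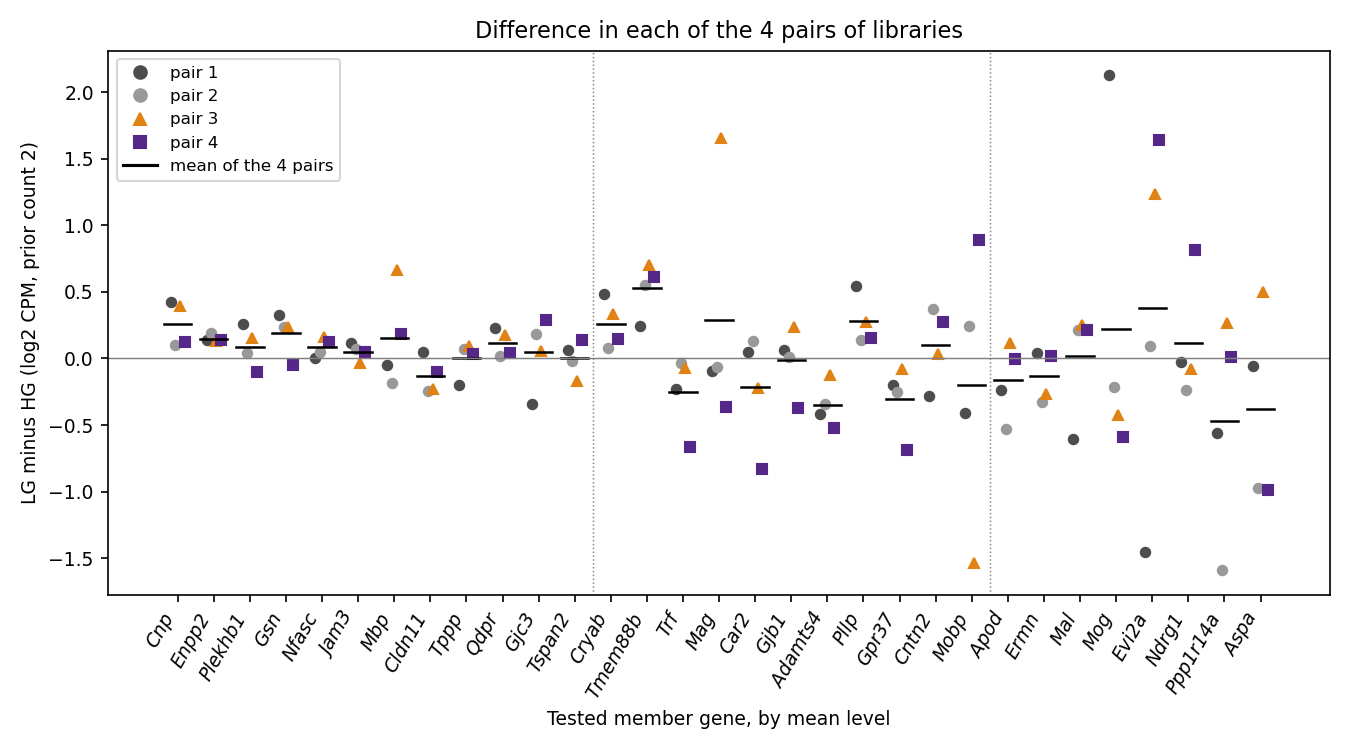
Difference of LG minus HG in log2 CPM within each library number for the tested members, with 1 point for each of the 4 numbers and a bar at their mean. Cnp, Enpp2, Qdpr, Tmem88b, Cryab and Pllp have all 4 points above 0, Nfasc has 3 above and 1 at 0, and Trf, Adamts4 and Gpr37 have all 4 below.

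Of the 31 tested members, 7 were higher in LG within all 4 numbers, counting the level pair of Nfasc, and 3 were lower within all 4. Among all genes these shares were 10.8% and 11%. The 7 were Cnp, Enpp2, Nfasc, Qdpr, Cryab, Tmem88b and Pllp, and the 3 were Trf, Adamts4 and Gpr37.

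Tmem88b, a transmembrane protein gene of the sheath group, showed the largest difference for its error. It was at 5.69, 5.95, 4.96 and 7.94 CPM in HG and at 6.75, 8.76, 8.11 and 12.2 CPM in LG. LG was higher within each number, by 0.25, 0.55, 0.71 and 0.61 on the log2 scale, with group means of 6.14 ± 1.28 and 8.94 ± 2.30 (SD, n = 4). The groups overlapped, since HG 4 lay above LG 1. The log2 fold change was 0.54 (SE 0.205) without a block and 0.53 (SE 0.102) with it, where the adjusted p by edgeR was 0.0523. It passed in the blocked edgeR fit with GC and length offsets, with an adjusted p of 0.0265, where 1.35% of all genes passed (0.296% higher and 1.06% lower in LG), and by DESeq2 with the block, with an adjusted p of 0.00331. Over 26 settings its log2 fold change ran from 0.36 to 0.70, and it passed in those 2.

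The other intermediate members went in both directions, and 4 of all 11 had a log2 fold change above 0 without a block, with a median of -0.029. Adamts4, a secreted protease of matrix proteoglycans, was the lowest of them in LG. It was at 7.31, 7.06, 3.12 and 3.78 CPM in HG and at 5.46, 5.56, 2.85 and 2.63 CPM in LG. Its log2 fold change was -0.36 (SE 0.116) in the blocked edgeR fit, with an adjusted p of 0.216. Gpr37, a G protein-coupled receptor, ran from 3.66 to 6.26 CPM in HG and from 3.40 to 3.87 CPM in LG, with a log2 fold change of -0.34. Trf, the iron carrier transferrin, ran from 6.63 to 8.89 CPM in HG and from 5.61 to 7.42 CPM in LG, with a log2 fold change of -0.25. These 3 were lower in LG in all 26 settings, and none passed in any of them.

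Pllp, a proteolipid of the sheath, ran from 3.18 to 5.24 CPM in HG and from 4.52 to 5.84 CPM in LG, with a log2 fold change of 0.26. An antisense gene covers 54.2% of its exon bases and held 1306 counts against 2133 for Pllp, so its counts are uncertain. Cntn2, an adhesion protein of the region beside the paranode, ran from 1.25 to 2.60 CPM over both groups, with a log2 fold change of 0.14 (SE 0.239).

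By role, the sheath genes had 7 of 10 tested members above 0 without a block and 9 of 10 with it, and the junction genes had 4 of 6 in both fits. Cytoskeletal genes had 3 of 5 above 0, and the enzyme and transport genes 2 of 6. Tmem88b was the only member of any role that passed in an edgeR fit.

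The larger differences among these genes were between preparations. In edgeR's quasi-likelihood test of the preparation terms, with the glucose group in the model, 16 of the 31 tested members passed an adjusted p of 0.05, against 13.7% of all genes. Among them were Mobp and Aspa, which entered the test through the libraries of preparation 1 alone, and without these 2 the count was 14 of 29. The shares were 8 of 12 for the well-counted, 7 of 11 for the intermediate and 1 of 8 for the barely counted members. Mobp was 1 of these 7, and Aspa was the 1 barely counted member. Where only genes with at least 10 CPM were tested, 8 of the 12 members and 1547 of 10118 genes passed. Members moved in opposite directions: 7 of the 16 were highest in preparation 1 (numbers 1 and 2), 8 in preparation 3 (number 4) and 1, Gsn, in preparation 2 (number 3). Without Mobp and Aspa, 5 of 14 were highest in preparation 1. Genes in general also went in different directions: of 2585 called, 1542 were highest in preparation 1, 279 in preparation 2 and 764 in preparation 3. What else differed between the preparations is not given in the sources used here.

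The members highest in preparation 1 were Mbp, Mag, Mobp, Cryab, Car2, Adamts4 and Aspa. Mag was at 12.04, 13.7, 0.410 and 0.882 CPM in HG and at 11.3, 13.1, 1.37 and 0.679 CPM in LG. The 4 libraries of preparation 1 held 2808 Mag counts and the other 4 held 196, a ratio of 15.5 after scaling (95% interval 13.4 to 17.9, counting error only). The adjusted p of the preparation terms by edgeR was 3.9e-04. Its log2 fold change of LG over HG ran from -0.61 to 0.66 over 26 settings, below 0 in 13 of them.

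Mobp, a small basic protein of compact myelin, had 143, 98, 4 and 0 counts in HG and 104, 143, 0 and 2 counts in LG. All but 6 of its 494 counts were in preparation 1, a ratio of 87.7 (95% interval 40.0 to 240.2, counting error only). Aspa, which splits N-acetylaspartate, had 14, 29, 1 and 2 counts in HG and 13, 17, 2 and 0 in LG, a ratio of 15.7 (6.45 to 49.9). Mobp and Aspa reached 10 counts only in the 4 libraries of preparation 1, the libraries in which they were high, and no p is given for them. Opalin, a late membrane protein that was not tested, had 45 counts in preparation 1 and 9 in the other 4 libraries.

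Cryab, a small heat shock protein that acts as a chaperone, was at 14.8, 16.8, 1.97 and 1.41 CPM in HG and at 20.7, 17.7, 2.50 and 1.56 CPM in LG. Its preparation difference had the smallest adjusted p of the members by edgeR, 7.8e-08. LG was higher within each of the 4 numbers, at a log2 fold change of 0.27 in the blocked edgeR fit, with an adjusted p of 0.287. Car2, a carbonic anhydrase, was at 9.74, 8.27, 2.66 and 2.60 CPM in HG and at 10.1, 9.07, 2.27 and 1.45 CPM in LG. It too was high in numbers 1 and 2 of both groups. The Mbp ratio between the 4 libraries of preparation 1 and the other 4 was 2.95 (95% interval 2.87 to 3.03, counting error only).

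Among the members that passed and were highest in preparation 3, Gjb1 and Cnp differed most between numbers 1 and 2 and numbers 3 and 4. Gjb1, a connexin of the paranodal loops, was at 2.52, 2.60, 6.22 and 8.86 CPM in HG and at 2.64, 2.62, 7.34 and 6.85 CPM in LG. The preparation terms gave it an adjusted p of 7.6e-05 by edgeR, and numbers 1 and 2 lay 1.47 lower on the log2 scale than numbers 3 and 4 (-1.47). For Cnp this difference was -0.85, for Gjc3 -0.67, for Cldn11 -0.63 and for Enpp2 -0.59. All 6 junction and adhesion members were highest in preparation 3, and Cldn11, Jam3, Gjc3 and Gjb1 passed. Nfasc, at a mean of 156 CPM in preparation 3 and 154 CPM in preparation 1, and Cntn2 did not pass. Tmem88b was also highest in preparation 3, at a mean of 10.1 CPM, and passed in 8 of 13 settings, while Gsn passed in 9 of 14. The other 14 of the 16 passed in every setting in which they were tested. These include Mobp and Aspa, which entered the main test through preparation 1 alone, so their passes are not counted as support.

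**Figure D3:**
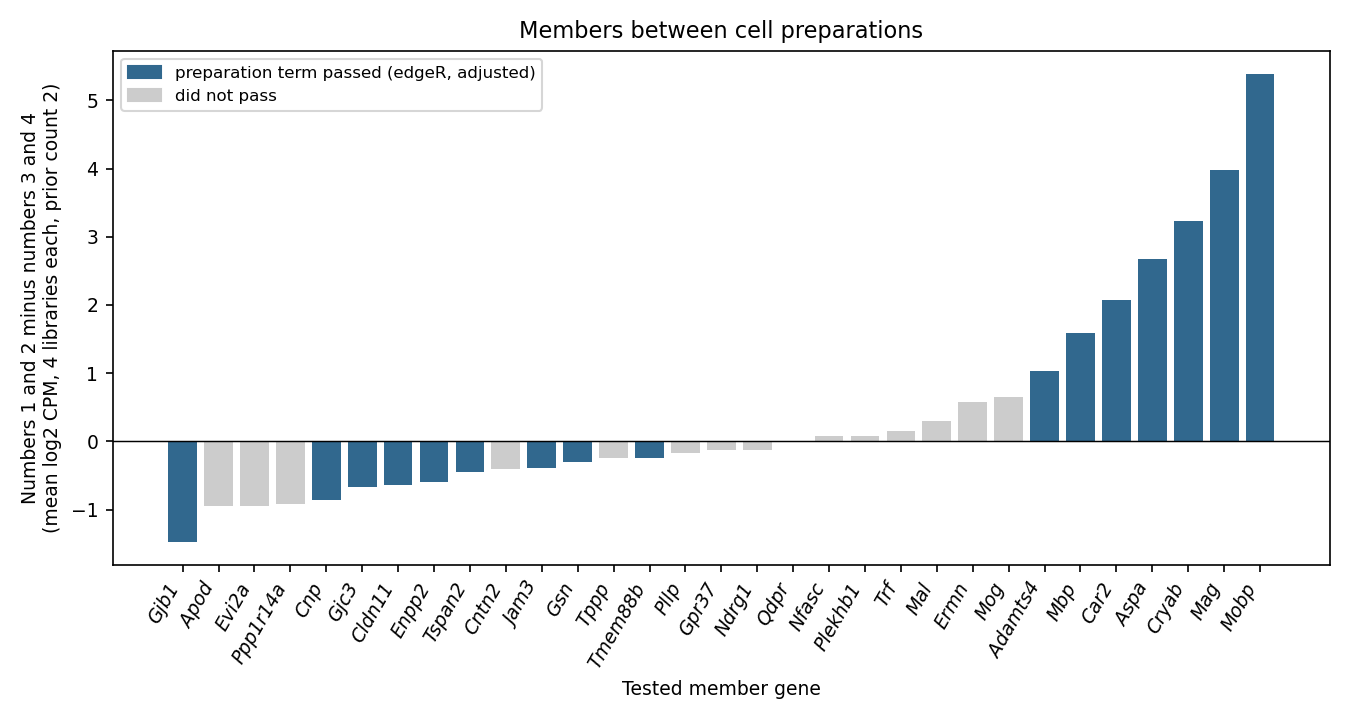
Mean log2 CPM (prior count 2) of each tested member in the 4 libraries numbered 1 and 2 minus that in the 4 numbered 3 and 4, both glucose groups together, as bars in order of the difference, with members that passed the preparation test in blue. Mobp (5.38), Mag (3.97), Cryab (3.23), Aspa (2.68), Car2 (2.07) and Mbp (1.59) stand at the upper end, and Gjb1 (-1.47) at the lower, with Cnp at -0.85.

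Counted library by library, 8 of the 31 tested members (25.8%) lay higher in all 4 libraries numbered 1 and 2 than in any numbered 3 or 4, as 11.2% of all genes did. These were Mbp, Cryab, Mag, Car2, Adamts4, Mobp, Ermn and Aspa, or 6 of 29 without Mobp and Aspa. A further 10 (32.3%) lay lower in all 4, as 11.9% of all genes did. These were Cnp, Enpp2, Gsn, Jam3, Cldn11, Tppp, Gjc3, Tspan2, Gjb1 and Apod. The balance within the sheath genes changed accordingly. For each 100 counts of Cnp there were 31.6, 32.1, 4.43 and 5.29 counts of Mbp in HG and 22.8, 26.3, 5.32 and 5.50 in LG. In preparation 1 the LG libraries held the fewer Mbp counts for each Cnp count, and in numbers 3 and 4 slightly more.

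Markers of astrocytes, and some of mural cells and fibroblasts, moved with the preparation. In the other lists, 2 of 9 tested neuronal, 2 of 8 Schwann cell, 0 of 4 microglial and 2 of 3 endothelial markers passed the preparation test by edgeR. All 12 astrocyte markers passed the preparation test by edgeR, and 11 of the 12 were highest in preparation 1, among them Gja1, Aqp4 and Gfap, with none at 0 in all libraries. Markers of mural cells and fibroblasts summed to 32.5 to 52.5 CPM in preparation 1 and to less than 12 CPM in each of the other 4 libraries, and 3 of the 6 tested passed. Notch3 made up most of this sum, at 27.1 to 45.6 CPM in preparation 1 and 7.19 to 8.82 CPM in the others, and it passed. Pdgfrb also passed, at 3.13 to 5.52 CPM in preparation 1 and 0.153 to 0.225 CPM in the others. Ogn was at 0.398 to 0.791 CPM in preparation 1 and 0 to 0.0886 CPM in the others. It entered the test through the libraries of preparation 1 alone, where it was high, so its pass is not counted as support. Acta2, Rgs5 and Col1a1 did not pass. Between LG and HG, astrocyte markers summed to 800.1 to 2029 CPM in HG and 705 to 2143 CPM in LG. The part of these cells in the preparation differences of the members was not tested, and in bulk RNA fewer cells of a type and less RNA per cell cannot be told apart.

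The members varied widely between libraries of a group. The median SD between libraries of a group was 0.427 on the log2 scale for the 31 tested members and 0.220 for all genes. For the 12 well-counted members it was 0.253, against 0.144 for all genes of at least 10 CPM. The SD of the 4 differences between same-numbered libraries was 0.134 for the well-counted members and 0.131 for all genes of at least 10 CPM. The well-counted members therefore varied more than like genes between numbers and about as much within them.

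The barely counted members allowed only a coarse comparison. Mog, a protein of the outer sheath surface, had 8, 24, 13 and 22 counts in HG and 40, 25, 8 and 16 in LG. Mal, a raft proteolipid of myelin, had 26, 18, 16 and 17 counts in HG and 16, 26, 17 and 23 in LG. Ermn, a cytoskeletal protein of late oligodendrocytes, had 30, 24, 21 and 18 counts in HG and 30, 23, 15 and 21 in LG. In none of these did the glucose groups part, and each library held at most 40 counts of any of the 3.

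Apod, a lipid-carrying lipocalin, was the best counted of this class, with 38, 29, 60 and 67 counts in HG and 31, 24, 57 and 77 in LG. Ndrg1 had 9 to 20 counts in HG and 9 to 24 in LG, and Ppp1r14a, a phosphatase inhibitor, had 10 to 19 and 3 to 22. Evi2a, which shares 19.2% of its exon bases with the gene Evi2, had 6 to 23 counts in HG and 7 to 66 in LG. The 66 counts in LG 4 made its log2 fold change of 0.75 (SE 0.692) the largest of the members, and over 24 settings it ran from -0.17 to 1.66. Of the 8 members of this class that were tested, 3 had a log2 fold change above 0, with a median of -0.047, and none passed.

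Hapln2, Opalin and Klk6 had too few counts to be tested. Hapln2, a link protein of the perinodal matrix, had 11, 9, 13 and 4 counts in HG and 6, 4, 6 and 6 in LG. Opalin had 9, 10, 2 and 3 counts in HG and 10, 16, 4 and 0 in LG. Klk6, a secreted serine protease of mature oligodendrocytes, had 0 counts in all 8 libraries, which allows a level of up to 0.0443 to 0.0574 CPM in a library (3 counts). A difference between LG and HG in these 3 genes was not detectable at this depth.

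**Figure D4:**
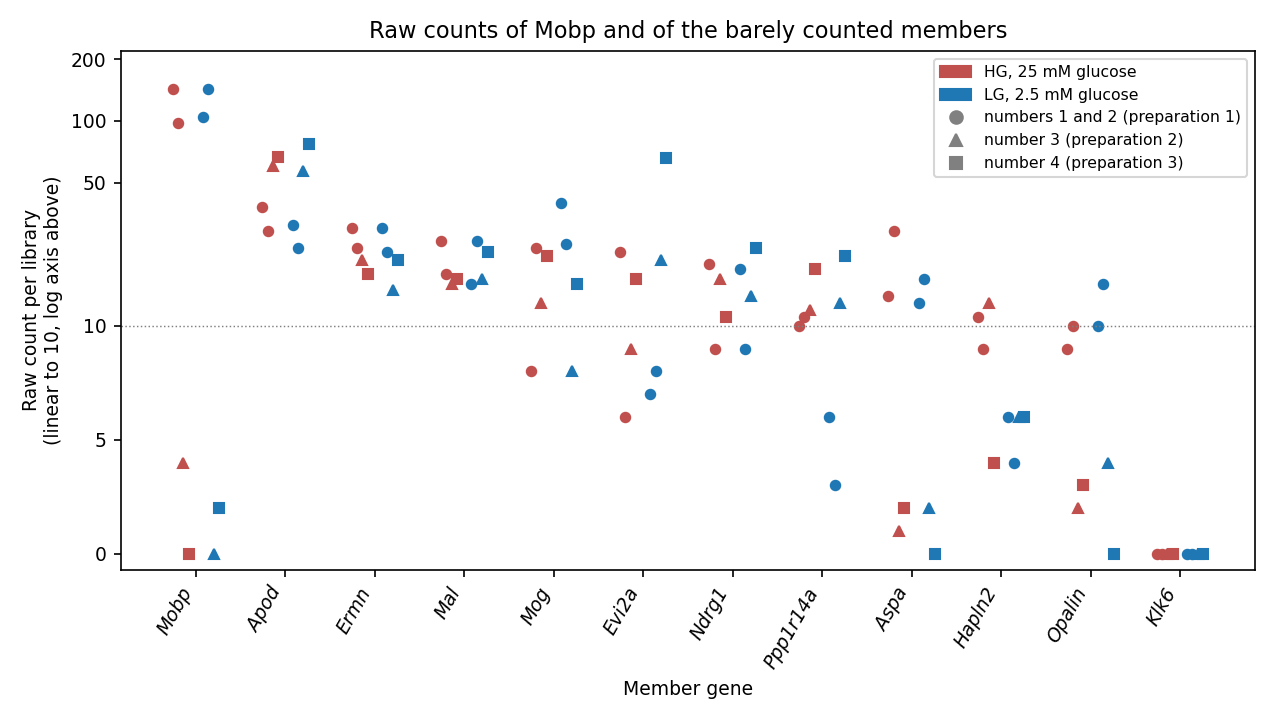
Raw counts of Mobp and of the 11 barely counted members in each library, on an axis that is linear up to 10 counts and logarithmic above, with HG and LG in separate colours and the preparations as symbols. Apod reaches 77 counts and Evi2a 66 in LG 4, no other barely counted member exceeds 40, Klk6 is at 0 throughout, and Mobp, Aspa and Opalin lie lower in numbers 3 and 4 than in numbers 1 and 2.

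Among genes known to precede or drive the myelin genes, 3 of 47 tested passed in the blocked edgeR fit, where 0.418% of all genes did, and the difference of this share from that of the members was not tested. Myrf, the transcription factor that turns on myelin genes, passed at a log2 fold change of 0.60 (SE 0.0674, adjusted p 0.00871), from 42.8 ± 15.5 CPM in HG to 65.7 ± 26.8 in LG. It was the only call among 15 regulators of myelin genes, of which 9 had a value above 0, with a median of 0.038. Among 16 premyelinating genes, 15 had a value above 0, with a median of 0.25. Of these Neu4, a sialidase, passed in the blocked edgeR fit at 0.76 (SE 0.0777, adjusted p 0.00576). Among 16 genes of myelin lipid synthesis, 10 had a value above 0 and Fa2h, which makes hydroxylated fatty acids of myelin lipids, passed in that fit at 0.52 (SE 0.0762, adjusted p 0.0346).

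A further 25 genes of mature oligodendrocytes, none of them among the 34, were examined in the same way. Of the 23 tested, 13 had a value above 0 in the blocked edgeR fit, with a median of 0.027, and 0 passed, while 7 had an unadjusted p under 0.05, against 13.4% of all genes. The differences of largest size were those of Galnt6, at -1.25 (SE 0.371, adjusted p by edgeR 0.189) with 142 counts over all libraries, and Kif6, at 0.53 (SE 0.272, adjusted p by edgeR 0.433). Without a block none of the genes of these 4 lists passed. Myrf, Neu4 and Fa2h were each higher in LG within all 4 numbers. None of these 3 passed in edgeR with the preparation as block (adjusted p 0.117 for Myrf, 0.117 for Neu4 and 0.130 for Fa2h) or in the blocked fit without pair 2 (0.0527, 0.0527 and 0.154). Without pair 1, Myrf (0.0545) and Fa2h (0.117) did not pass and Neu4 did (0.036), and with libraries summed per preparation Fa2h did not (0.0633).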

How the data were processed

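Poly(A)-selected RNA of 8 libraries was sequenced as paired reads. The authors deposited raw, unnormalized read counts per Ensembl gene. The submitters' processing notes name STAR, featureCounts, CASAVA 1.8.2, DESeq2 and mm10. The sources used here do not state the strand setting, the annotation release, the treatment of reads with several matches, or whether pairs or mates were counted. No separate animals are named for the libraries, so p-values measure the spread between libraries.

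Symbols, exon lengths and overlaps came from GENCODE M21 (52125 IDs matched). Counts were fitted in R 4.3.3 with edgeR 4.0.16, with the filter filterByExpr (18905 genes kept) and TMM scaling. LG and HG were compared by its quasi-likelihood F test with no block, p-values being adjusted by the Benjamini-Hochberg method over all tested genes with a threshold of 0.05. Preparations were compared by the F test of the 2 preparation terms with the glucose group in the model. The SE is the absolute log2 fold change divided by the square root of F. Log2 CPM used a prior count of 2, and classes by depth used CPM on total counts. The members, lists and tests were chosen with earlier results of these data known. All 34 members are accounted for. Values per library were given for well-counted members and for intermediate members that passed a fit or were highest or lowest in LG, and barely counted members were given as counts. Genes of other lists were named if they passed in the blocked fit, and otherwise the 2 of largest size.

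Same-numbered HG and LG libraries deviated together (r across genes 0.448 to 0.625, against at most 0.419 for different numbers) and share a preparation code, so the numbers were taken to pair the libraries. Alternatives were a block for number or preparation, offsets for GC content and length (mgcv 1.9.3, known for 97.5% of genes), DESeq2 1.42.0, limma-voom (3.58.1), other scaling and filters, and left-out libraries, pairs or preparations. The tests were tried on simulated counts. Intervals of count ratios cover counting error only. RefSeq promoters are of GRCm38.p6, and windows on chromosome 18 were not used.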

Additional observations from a re-analysis of the deposited data

How the results depend on the processing

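Without a block, edgeR called 0 genes between LG and HG with all libraries and with each library left out in turn (0 to 0), DESeq2 called 4, and 0 of them were members in these fits. With the replicate number as a block, which follows the pairing of the libraries, 79 genes and 0 members were called. With GC and length offsets beside the block there were 256 genes and 1 member (Tmem88b), by DESeq2 with the block 452 genes and 2 members (Cnp and Tmem88b), with the preparation as block 1 gene, and with libraries summed per preparation 17. With the block and a pair left out, 0 to 148 genes were called (leaving out pair 1 gave 6, pair 2 gave 0, pair 3 gave 39 and pair 4 gave 148), and 0 members. The block changed no other call of a member. The median log2 fold change of the tested members, 0.014, ran from 0.0032 to 0.11 with single libraries left out and from 0.027 to 0.078 with pairs left out of the blocked fit, and was 0.083 with libraries summed per preparation and 0.11 without preparation 1, an alternative chosen after seeing the data. Members above 0 numbered 17 to 21 and 16 to 18 in the same left-out series. Of the 12 well-counted members, 7 to 11 were above 0 with a library left out (7 without LG 4) and 8 to 10 with a pair left out. Over 26 settings 8 members were above 0 throughout (Cnp, Pllp, Tmem88b, Nfasc, Gsn, Plekhb1, Qdpr, Enpp2) and 3 below (Trf, Adamts4, Gpr37). The preparation test called 2585 genes and 16 members, and with a library left out 1575 to 2162 genes and 14 to 16 members. With GC and length offsets it called 3175 genes and 18 members, and with no filter 3592 genes and 19 members. With only genes of at least 10 CPM, chosen after seeing the data, it called 1547 of 10118 genes and 8 of 12 members. That limit leaves out the intermediate and barely counted members. The cause of the changes between settings was not tested. Depth limits the 11 barely counted members most: they held 0 to 383 counts each over all libraries.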

Other observations

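The preparation test by edgeR was also read for the 4 related lists, beside 13.7% of all genes. Of the 2585 genes called, 1542 were highest in preparation 1, 279 in preparation 2 and 764 in preparation 3. Among the 15 regulators of myelin genes, 6 passed and 0 of these were highest in preparation 1. Sox10 was at 256, 327, 598 and 826 CPM in HG 1 to 4 and at 339, 368, 671 and 916 CPM in LG 1 to 4, lowest in the libraries in which Mbp and Mag were highest. Among the 16 genes of myelin lipid synthesis 8 passed, 4 highest in preparation 1 and 4 in preparation 3. Among the 16 premyelinating genes 10 passed, 7 of them highest in preparation 3. Gpr17, a receptor of the premyelinating stage, was at 682, 792, 1241 and 2079 CPM in HG and at 971, 1014, 1695 and 2424 CPM in LG. Enpp6, another premyelinating gene, went the other way, at 29.4, 22.47, 2.15 and 5.45 CPM in HG and at 27.8, 22.54, 8.90 and 10.9 CPM in LG.

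Of the 23 tested genes of mature oligodendrocytes outside the 34, 11 passed the preparation test by edgeR, 8 of them highest in preparation 1. Over all genes, 1542 of the 2585 called were highest in preparation 1. Lpar1, a receptor for lysophosphatidic acid, was at 2.39, 3.22, 0.164 and 0.0849 CPM in HG and at 1.65, 1.92, 0.188 and 0.340 CPM in LG. Efhd1, a calcium-binding protein, was at 3.48, 4.15, 0.739 and 1.04 CPM in HG and at 5.23, 4.56, 0.882 and 0.605 CPM in LG. Gltp, which carries glycolipids, was at 149, 150.3, 199.6 and 246 CPM in HG and at 176, 165, 230.2 and 248 CPM in LG. These genes were picked after their values were seen. The astrocyte markers given in the report were high in the same 4 libraries as Lpar1 and Efhd1, and their part in these values was not tested.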
